A study of Mus musculus with 48 samples.

Results

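The 8 genes described here are receptors of the neurotrophins and of the GDNF family, with 1 neurotrophin, Bdnf. They were taken by name (Ntrk2, Ntrk3, Ngfr, Ret, Gfra1, Gfra2, Gfra3 and Bdnf), and all 8 were found among the 34183 genes of both deposited expression tables. The 48 libraries came from primary cultures enriched for sensory neurons, whose cell bodies sit in the dorsal root ganglia, taken from adult mice of wild-type genotype. Dissociation cuts the axons of these neurons, and the series examined transcription factors that respond to such injury. Each group held 4 libraries. In the 7 knockdown groups, siAtf3, siAtf4, siJun, siStat3, siKlf6, siRest and siAlyref, cells were transfected at isolation with a pool of small interfering RNAs against the named gene and RNA was taken at 42 h. Their reference, siCONTROL, was transfected with a control pool and harvested at the same time. In 2 overexpression groups, cells received synthetic mRNA for Atf4 together with Cebpg, or for Atf4 alone, and their reference received GFP mRNA, again with harvest at 42 h. A further group was untransfected and taken at time 0. Every group shared the wild-type genotype and the culture medium.

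Each target was knocked down with 1 pool, so effects of a pool other than the loss of its target were not separated. Nothing in the labels ties replicates to separate animals or dishes, and p-values therefore rest on a spread between libraries that may be technical. RNA was bulk, so fewer cells of a type and less RNA per cell cannot be told apart in any result below. The deposited values are sums per gene, so full-length and truncated forms of a receptor, as Ntrk2 and Ntrk3 are known to have, are counted together.

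Column totals ranged from 1539198 to 6621566 over the 48 libraries. Every targeted gene was lower in its knockdown with no overlap of libraries, with log2 fold changes between -2.58 (Atf4 in siAtf4) and -1.46 (Rest, 3.27 CPM in siRest and 8.40 CPM in siCONTROL). Atf4 averaged 14088 CPM with Atf4 mRNA and 640 CPM with GFP mRNA, and Cebpg averaged 60854 CPM with both mRNAs and 46.5 CPM with GFP mRNA, values that include the transfected mRNA. CPM are counts scaled to a common library total, with 1 scaling over all libraries of a table. The neuronal genes Tubb3, Prph and Rbfox3 were present in every group, and satellite glia and Schwann cell genes were present beside them, so the RNA was not from neurons alone.

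Neurotrophins are secreted growth factors that bind Trk receptor tyrosine kinases, which signal survival, growth and excitability, and the shared receptor p75, which Ngfr encodes. Ntrk2 encodes TrkB, the receptor for BDNF, and Ntrk3 encodes TrkC, the receptor for neurotrophin-3. Both are known for marking large-diameter sensory neurons. Members of the GDNF family act through Ret, a receptor tyrosine kinase that cannot bind them alone and needs a GPI-anchored co-receptor: Gfra1 for GDNF, Gfra2 for neurturin and Gfra3 for artemin. Bdnf itself is made by a subset of sensory neurons and is known to be induced in them by inflammation and axon injury.

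Promoter sequences are shown for Bdnf because it was the 1 member that was lower in siAtf3, siAtf4 and siJun alike, below. RefSeq promoter windows (GRCm38.p6, 250 bases before to 50 after a transcript start) were used for 4 of the 8 genes: 7 windows for Bdnf and 1 each for Ngfr, Ntrk2 and Gfra1. They were searched on both strands for an AP-1 motif (TGANTCA), bound by Jun and Fos family dimers, a CRE (TGACGTCA), its half-site (TGACG), and a C/EBP-ATF composite motif (TGATGNAA), the kind that Atf4 binds as a dimer with C/EBP proteins. The half-site lies inside the CRE, so a CRE match is also a half-site match. There were 3 matches, each in a different Bdnf window, and none in the windows of Ngfr, Ntrk2 and Gfra1. Among 32851 windows of all genes, 7.81% held the AP-1 motif, 1.79% the CRE, 20.8% the half-site and 3.97% the composite motif. A match is a description of letters and not a bound site. The 3 windows follow, all on the plus strand, with the matched letters in capitals.
Bdnf chr2:109676782-109677081, AP-1 match 152 bases before the start: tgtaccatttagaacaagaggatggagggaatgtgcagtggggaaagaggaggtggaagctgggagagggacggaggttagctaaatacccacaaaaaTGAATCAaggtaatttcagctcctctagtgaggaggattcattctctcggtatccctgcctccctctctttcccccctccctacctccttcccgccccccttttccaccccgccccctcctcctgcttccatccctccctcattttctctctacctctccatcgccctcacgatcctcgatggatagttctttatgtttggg
Bdnf chr2:109692186-109692485, half-site match (reverse strand) 35 bases before the start: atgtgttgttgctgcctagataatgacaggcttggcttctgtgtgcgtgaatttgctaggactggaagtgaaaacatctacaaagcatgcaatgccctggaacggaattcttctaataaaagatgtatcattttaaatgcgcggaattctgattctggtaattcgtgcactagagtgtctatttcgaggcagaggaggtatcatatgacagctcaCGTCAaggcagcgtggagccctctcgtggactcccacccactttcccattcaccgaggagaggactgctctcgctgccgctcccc
Bdnf chr2:109722671-109722970, composite match (reverse strand) 8 bases after the start: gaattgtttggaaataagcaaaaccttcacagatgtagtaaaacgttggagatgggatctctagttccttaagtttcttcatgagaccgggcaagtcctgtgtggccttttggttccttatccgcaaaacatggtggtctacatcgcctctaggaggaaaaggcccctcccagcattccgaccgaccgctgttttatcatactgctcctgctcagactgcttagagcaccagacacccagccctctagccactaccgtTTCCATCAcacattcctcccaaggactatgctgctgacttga

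In freshly isolated cells p75 and Ret were the most abundant of the 8 mRNAs, and 42 h of culture with siCONTROL changed the order. Ngfr, Ntrk2, Ntrk3 and Gfra2 were lower in culture and Bdnf was higher, while Ret, Gfra1 and Gfra3 did not pass the test. That is 4 lower and 1 higher of 8 genes, at an adjusted p under 0.05 in edgeR's quasi-likelihood test with Benjamini-Hochberg adjustment over all genes, which is the test behind every adjusted p below. Culture moved much of the transcriptome: 57.9% of 13448 genes tested were called, 29.2% as lower and 28.7% as higher. The median log2 fold change was -0.83 over the 8 genes and 0.01 over all genes. The siCONTROL cells had been transfected and the time 0 cells had not, and these effects cannot be told apart from those of time.

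Gfra2, the neurturin co-receptor, changed most among the 8. Its level was 19.4, 18.6, 32.9 and 27.7 CPM in the siCONTROL libraries, against 242, 187, 266 and 208 CPM in the time 0 libraries. Every siCONTROL library lay far below every time 0 library. The fold change was 9.11-fold lower, or -3.19 ± 0.18 on the log2 scale (SE, n = 4 each, adjusted p = 1.01e-07). The co-receptors for GDNF and artemin stood differently. Gfra1 averaged 146 ± 44.2 CPM in siCONTROL and 136 ± 23.5 CPM at time 0 (SD, n = 4 each), and Gfra3 averaged 94.7 ± 14.0 CPM in siCONTROL and 77.6 ± 16.4 CPM at time 0, with overlapping libraries for both. Ret, the shared kinase, measured 537, 531, 439 and 517 CPM in siCONTROL, against 571, 537, 631 and 574 CPM at time 0. The highest siCONTROL library was just above the lowest at time 0, and the difference of -0.20 ± 0.08 on the log2 scale did not pass (adjusted p = 0.0526). Without time 0 replicate 2 it was -0.24 and passed (adjusted p = 0.0401). With all libraries kept, it passed in 2 of 6 alternative settings. For Gfra3 the log2 fold change of 0.28 passed without time 0 replicate 3 (0.43, adjusted p = 0.0155) and with all siRNA groups in 1 fit (0.29, adjusted p = 0.0401). The 3 log2 fold changes without a call lay between -0.20 and 0.28, with 95% intervals reaching from -0.37 to 0.61.

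With levels compared per transcript length, the co-receptors of Ret stood in another order in siCONTROL than at time 0. The ratio of Gfra2 to Gfra1 was 0.197 ± 0.126 in siCONTROL and 1.70 ± 0.419 at time 0 (SD, n = 4 each), and that of Gfra2 to Gfra3 was 0.261 ± 0.0666 in siCONTROL and 2.95 ± 0.437 at time 0. Gfra2 was the lowest of the 3 co-receptors in siCONTROL and the highest at time 0, in both with no overlap of libraries. The ratio of Ret to Gfra1 was 3.69 ± 0.954 in siCONTROL and 4.35 ± 0.837 at time 0, and these libraries overlapped.

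The neurotrophin receptors fell together. Ngfr measured 282, 318, 239 and 263 CPM in siCONTROL, against 740, 758, 797 and 754 CPM at time 0, a 2.77-fold lower level (adjusted p = 1.11e-07). Ntrk2 measured 18.5, 28.3, 27.7 and 30.004 CPM in siCONTROL, against 78.0, 86.7, 61.0 and 84.5 CPM at time 0, 2.94-fold lower (adjusted p = 7.47e-06). Ntrk3 measured 20.9, 27.9, 27.5 and 37.3 CPM in siCONTROL, against 72.6, 103, 85.5 and 99.9 CPM at time 0, 3.17-fold lower (adjusted p = 6.75e-06). In none of the 3 did a library of one group reach the other. Bdnf, the TrkB ligand, went the other way at 55.2, 52.5, 58.9 and 46.0 CPM in siCONTROL, against 22.4, 19.7, 25.1 and 17.1 CPM at time 0. All 4 siCONTROL libraries were above all 4 at time 0, and the level was 2.51-fold higher (adjusted p = 8.33e-06).

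Ordered by level, siCONTROL ran Ret, Ngfr, Gfra1, Gfra3, Bdnf, Ntrk3, Ntrk2 and Gfra2. The libraries of neighbours overlapped between Gfra1 and Gfra3 and among the last 3 genes, which lay between 24.7 and 28.4 CPM on average. At time 0 the order was Ngfr at 762 CPM, Ret at 578 CPM, Gfra2, Gfra1, Ntrk3, Gfra3, Ntrk2 and Bdnf at 21.1 CPM, and only Ntrk3 and Gfra3, and Gfra3 and Ntrk2, overlapped as neighbours. In GFP mRNA cultures, scaled apart from the others, the order was the one of siCONTROL down to Bdnf, and Ntrk2, Ntrk3 and Gfra2 overlapped at 20.4 to 21.6 CPM.

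**Figure D1:**
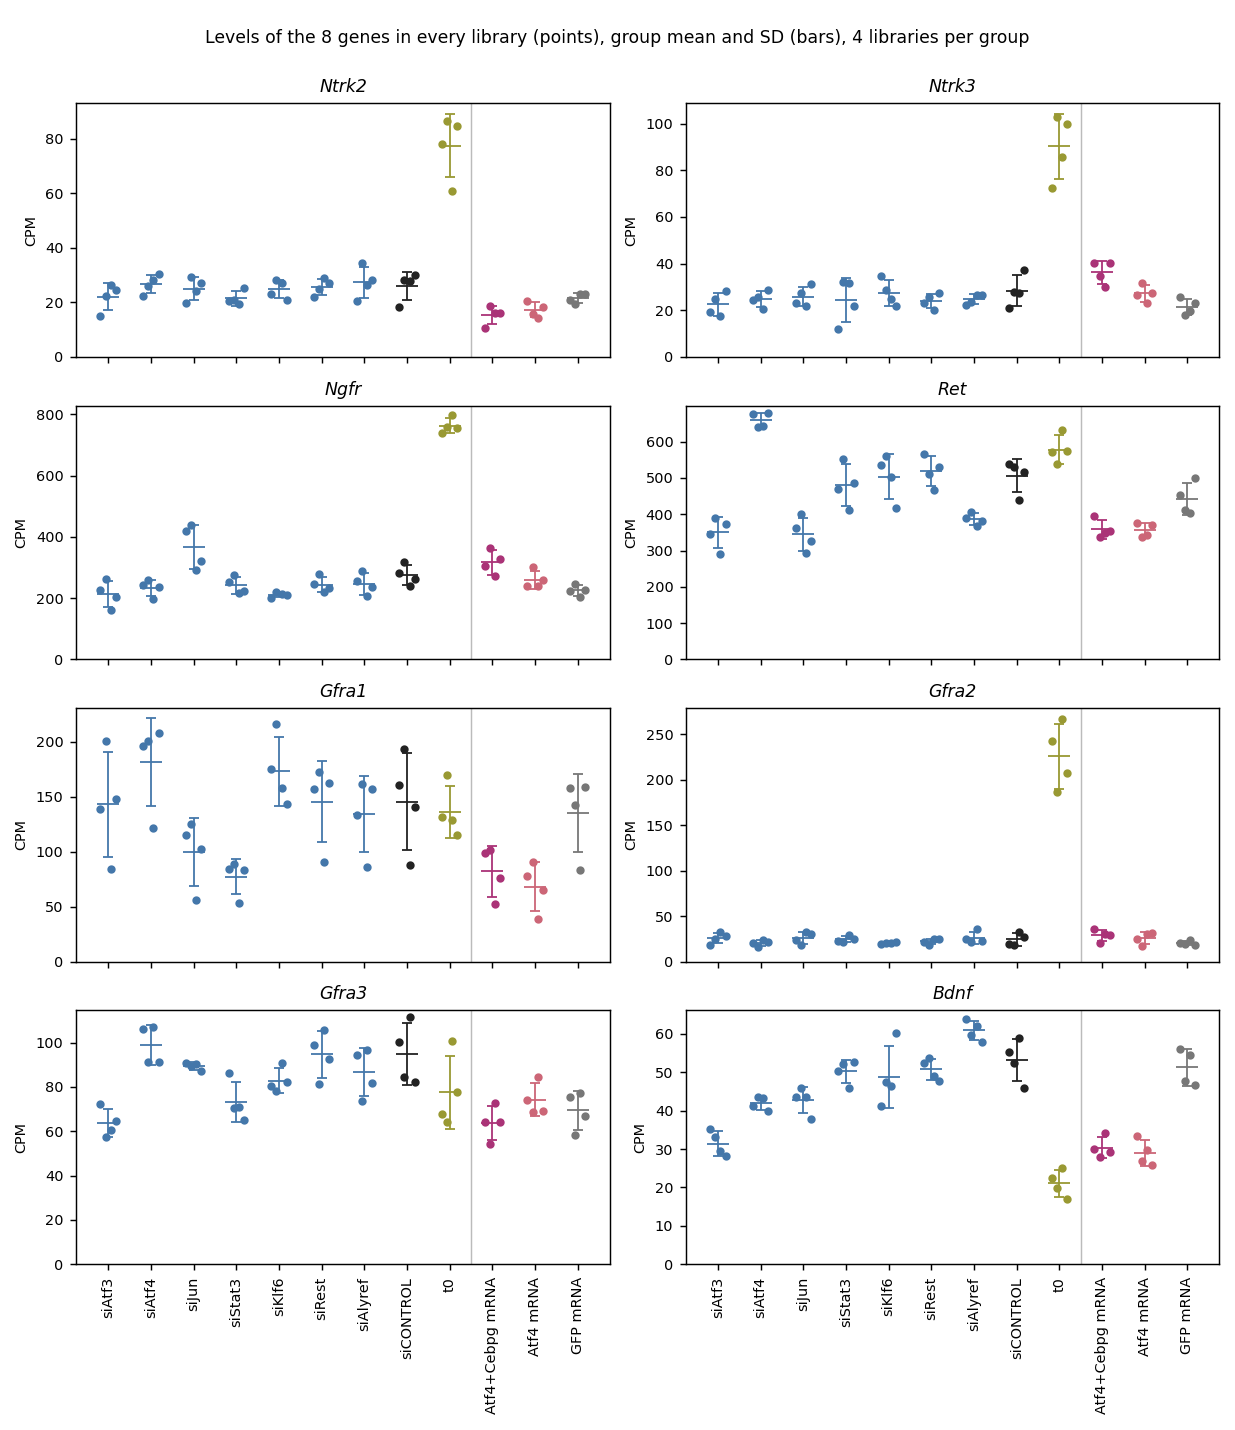
Level of each gene in CPM (y axis, linear from 0) in every library (points) of the 12 groups, with the group mean and SD as bars; the siRNA and time 0 groups left of the grey line and the mRNA groups right of it were scaled separately. Gfra2, Ngfr, Ntrk2 and Ntrk3 stand highest at time 0 and Bdnf lowest, Ret is highest in siAtf4, and Gfra1 is low in siStat3 and in both Atf4 mRNA groups.

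Other genes of these pathways changed in culture in both directions. Of 12 other receptors and co-receptors tested, 5 were higher and 6 lower. Lingo1, a partner of p75 in the Nogo receptor complex, was 3.26-fold lower. Gfra4, the persephin co-receptor, was 2.16-fold lower, and Lrig1, a membrane inhibitor of receptor tyrosine kinases, was 3.31-fold higher. Gdnf, the ligand that binds Gfra1, was higher, at 3.72 CPM in siCONTROL and 0.390 CPM at time 0.

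Of 24 receptor adaptors, 8 were higher and 5 lower. Dok5, a docking protein of Ret and the Trk receptors, averaged 102 ± 11.1 CPM in siCONTROL and 10.3 ± 2.96 CPM at time 0, while its relative Dok4 was 3.26-fold lower. Of 14 signalling kinases and feedback inhibitors, 4 were higher and 7 lower, among them the PI3-kinase subunit Pik3r1 (2.51-fold lower) and the feedback inhibitor Spry4 (3.07-fold lower). Of 11 genes known to respond to neurotrophins, 8 were lower and 1 was higher. The sodium channels Scn11a and Scn10a were 17.2-fold and 7.69-fold lower, the immediate early gene Fos was 24.9-fold lower, and Vgf, a secreted protein induced by neurotrophins, was 5.05-fold higher.

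Markers of the cells that carry these receptors, and of other cells, differed between the groups as well. Of 9 markers of Ret-expressing non-peptidergic neurons, 8 were lower and 0 higher (summed level 546 to 669 CPM in siCONTROL and 1286 to 1734 CPM at time 0). Mrgprd, which marks the main class of these neurons, averaged 1.25 CPM in siCONTROL and 172 CPM at time 0. Of 13 markers of TrkB and TrkC large-diameter neurons, 12 were lower and 1 higher (815 to 1355 CPM in siCONTROL and 1626 to 2853 CPM at time 0). Pan-neuronal markers summed to 15142 to 19320 CPM in siCONTROL and 21242 to 23693 CPM at time 0, with 8 of 15 lower and 1 higher. Satellite glia markers summed to 893 to 1045 CPM in siCONTROL and 4886 to 5847 CPM at time 0, with 7 of 10 lower and 2 higher. Schwann cell markers, a cell type that also expresses Ngfr, summed to 1516 to 1715 CPM in siCONTROL and 2167 to 2598 CPM at time 0, with 8 of 11 lower and 2 higher. Peptidergic neuron markers summed to 3893 to 4653 CPM in siCONTROL and 4658 to 6231 CPM at time 0, with 4 of 7 lower and 3 higher. Endothelial and mural markers had the higher sum in culture, 227 to 276 CPM in siCONTROL and 162 to 209 CPM at time 0, with 5 of 10 higher and 3 lower. The sums of these 7 lists did not overlap between the groups. Fibroblast markers (135 to 283 CPM in siCONTROL and 269 to 487 CPM at time 0, 3 of 7 higher and 2 lower) and macrophage markers (31.8 to 50.6 CPM in siCONTROL and 24.5 to 39.7 CPM at time 0, 2 of 6 higher and 2 lower) overlapped. The part of cell composition in the receptor values was not tested.

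**Figure D2:**
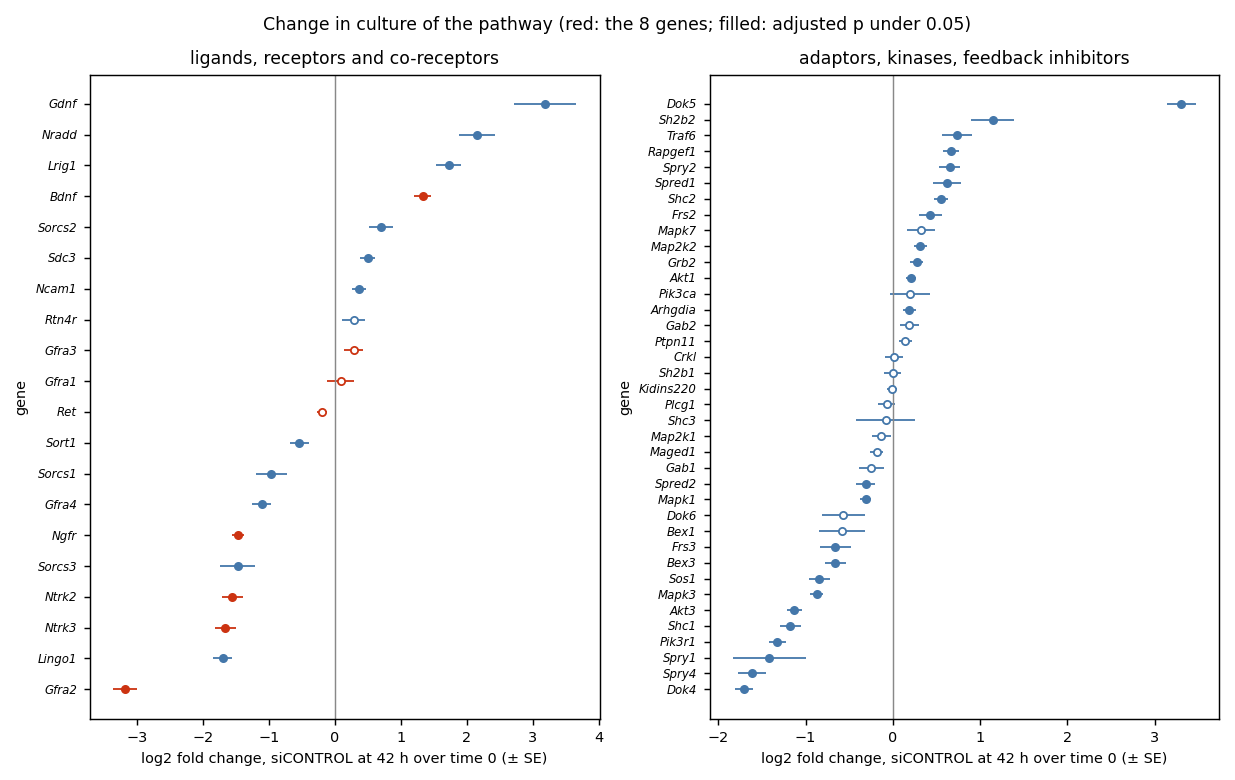
log2 fold change of siCONTROL at 42 h over time 0 (x axis, points with SE bars) for ligands, receptors and co-receptors (left) and for adaptors, kinases and feedback inhibitors (right), one gene per row. Red marks the genes described here and filled points are those with an adjusted p under 0.05; Gfra2 at -3.19 is the lowest receptor, Bdnf at 1.33 lies above 0 with the ligand Gdnf, and Ret, Gfra1 and Gfra3 are open.

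The next question was which of the injury-responsive factors, when knocked down, moved these genes away from their siCONTROL level. Ret and Bdnf changed in several knockdowns, Gfra3 in 2, and the other 5 genes were called in none against siCONTROL. In siAtf3, 3 of the 8 genes were lower and 0 higher, where 7.49% of 14876 genes were called lower and 4% higher (11.5% in all). In siAtf4, 1 was lower and 1 higher, where 4.17% of all genes were called lower and 2.74% higher (6.91% in all). In siJun, 2 were lower and 0 higher, where 4.59% were called lower and 3.19% higher (7.78% in all). In siStat3, 1 was lower and 0 higher, where 1.84% were called lower and 1.19% higher (3.03% in all). In siAlyref, 1 was lower and 0 higher, where 3.37% were called lower and 0.881% higher (4.26% in all). In siKlf6, 0 were called, where 1.14% of all genes were called lower and 0.706% higher (1.85% in all). In siRest, 0 were called, where 0.188% were called lower and 0.0134% higher (0.202% in all). All 7 comparisons share the siCONTROL libraries. For siKlf6, 1 of the 8 genes (Ngfr) had an unadjusted p under 0.05, and for siRest 0. With the replicate number as a block, edgeR called Ngfr lower in siKlf6 (log2 -0.45, adjusted p = 0.000162). Without the block, limma-voom and DESeq2, like edgeR, called 0 of the 8 genes in siKlf6 and siRest. The lowest column totals of the series were in these groups, 1539198 in siKlf6 replicate 1 and 1937372 in siRest replicate 1. The median over all 48 libraries was 4882199, and the part of depth in the absence of calls without the block was not tested.

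Ret was the gene with most calls. It measured 346, 390, 291 and 372 CPM in siAtf3, 675, 640, 643 and 679 CPM in siAtf4 and 361, 399, 294 and 326 CPM in siJun. It measured 391, 407, 367 and 381 CPM in siAlyref, against 537, 531, 439 and 517 CPM in siCONTROL. All siAtf4 libraries were above, and all siAtf3, siJun and siAlyref libraries below, every siCONTROL library. The log2 fold change was -0.53 ± 0.10 in siAtf3 (SE, n = 4 each, adjusted p = 0.000405), -0.55 ± 0.10 in siJun (adjusted p = 0.000422), -0.39 ± 0.10 in siAlyref (adjusted p = 0.0203) and 0.38 ± 0.10 in siAtf4 (adjusted p = 0.0158). In siStat3, siKlf6 and siRest it lay between -0.08 and 0.03, with 95% intervals within -0.28 and 0.24. The siAtf4 call for Ret was lost without siCONTROL replicate 3 (log2 0.31, adjusted p = 0.0795). The siAlyref call was lost without any 1 of siCONTROL replicates 1, 2 and 4 (adjusted p = 0.0645, 0.0637 and 0.0591) or of siAlyref replicates 3 and 4 (adjusted p = 0.0763 and 0.0579).

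Knockdowns were also compared with each other, which does not use siCONTROL. An F test across the 7 knockdowns passed for 5 of the 8 genes (Ngfr, Ret, Gfra1, Gfra3 and Bdnf), where 36% of all genes passed it. Of 168 tests (8 genes in 21 pairs of knockdowns, adjusted over all genes and pairs), 42 passed, where 10.6% of all such tests passed. Ret gave 15 of the 42. It was higher in siAtf4 than in siJun by 0.93 ± 0.10 on the log2 scale (adjusted p = 9.42e-08), and the siAtf3 minus siAtf4 difference was -0.91 ± 0.10 (adjusted p = 1.37e-07). It was also higher in siAtf4 than in each of siStat3, siKlf6, siRest and siAlyref, by 0.34 to 0.77. Between siAtf3 and siJun the difference in Ret was 0.02 ± 0.10 (SE, adjusted p = 0.947). Differences of the size of that error, and somewhat larger ones, stay unresolved.

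Bdnf, the ligand, was lowest in siAtf3. It measured 35.2, 33.1, 29.4 and 28.1 CPM in siAtf3, 41.2, 43.6, 43.2 and 40.0 CPM in siAtf4 and 43.5, 45.9, 43.6 and 37.9 CPM in siJun, against 55.2, 52.5, 58.9 and 46.0 CPM in siCONTROL. No library of these 3 knockdowns reached the lowest siCONTROL library. The level was 1.69-fold lower in siAtf3 (log2 -0.76 ± 0.09, adjusted p = 1.17e-06), 1.27-fold lower in siAtf4 (adjusted p = 0.02) and 1.24-fold lower in siJun (adjusted p = 0.0321). The siAtf4 call for Bdnf was lost without siCONTROL replicate 1 (adjusted p = 0.0538), siCONTROL replicate 3 (0.0888) or siAtf4 replicate 4 (0.0648). The siJun call was lost without any 1 of siCONTROL replicates 1, 2 and 3 (adjusted p = 0.0748, 0.0626 and 0.115) or siJun replicates 1, 3 and 4 (0.0604, 0.0537 and 0.134). Against the other knockdowns, Bdnf was lower in siAtf3 than in all 6, from -0.41 ± 0.10 in siAtf3 minus siAtf4 (adjusted p = 0.00364) to -0.95 ± 0.09 in siAtf3 minus siAlyref (adjusted p = 1.94e-08). In siAlyref it measured 58.0 to 63.8 CPM, the highest mean of the siRNA and time 0 groups, and the log2 fold change over siCONTROL of 0.20 ± 0.09 did not pass (adjusted p = 0.299).

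Gfra3, the artemin co-receptor, which is known for marking peptidergic nociceptors, measured 72.2, 57.6, 60.6 and 64.5 CPM in siAtf3 and 86.4, 70.5, 71.1 and 64.9 CPM in siStat3, against 101, 84.5, 112 and 82.1 CPM in siCONTROL. The siAtf3 libraries lay below all siCONTROL libraries, whereas the highest siStat3 library overlapped them. It was 1.49-fold lower in siAtf3 (log2 -0.57 ± 0.10, adjusted p = 0.000253) and 1.29-fold lower in siStat3 (log2 -0.37 ± 0.10, adjusted p = 0.0487). The siStat3 call for Gfra3 was lost without siCONTROL replicate 1 or 3 (adjusted p = 0.122 and 0.206) and without siStat3 replicate 2, 3 or 4 (0.11, 0.126 and 0.176). It was lost as well in limma-voom (0.0595) and with DESeq2 size factors (0.053). Between the knockdowns, Gfra3 was lower in siAtf3 than in siAtf4, siJun, siKlf6, siRest and siAlyref (log2 -0.39 to -0.63), and siAtf3 minus siStat3 was -0.21 ± 0.11 (adjusted p = 0.254).

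**Figure D3:**
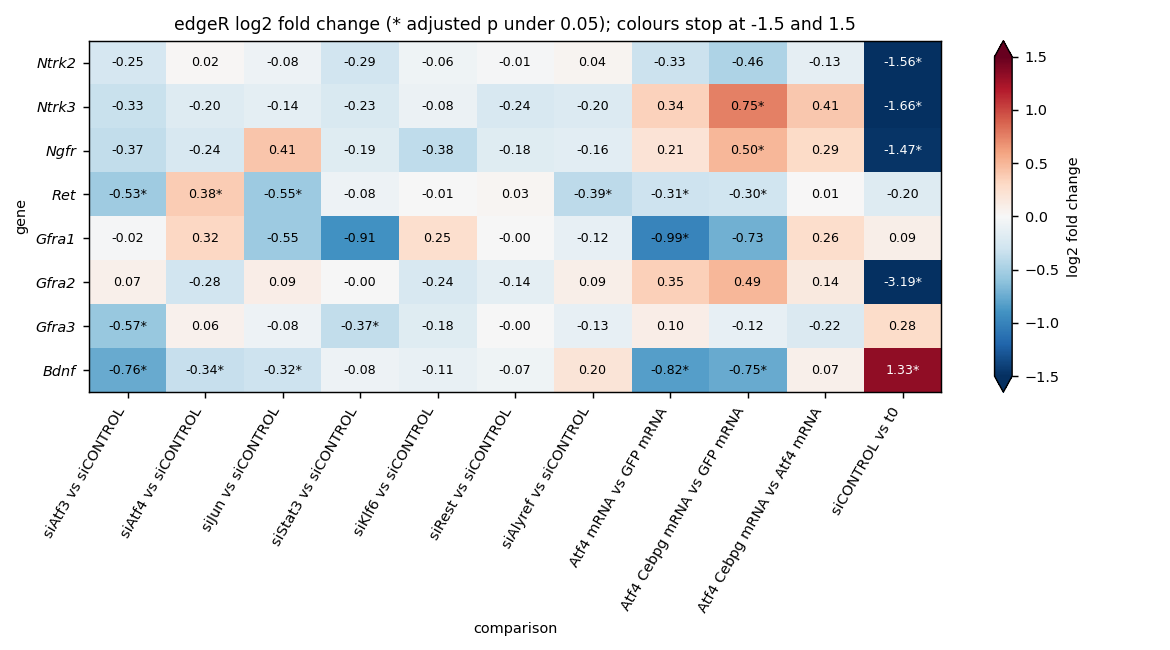
edgeR log2 fold change of each gene (rows) in each comparison (columns, the group named first over the one named after it), printed in the cells; an asterisk marks an adjusted p under 0.05 and colours stop at -1.5 and 1.5. Ret, Gfra3 and Bdnf carry the calls among the knockdowns, Ret with opposite signs in siAtf4 and in siAtf3, siJun and siAlyref.

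Ngfr, which encodes p75, was not called in any knockdown against siCONTROL by edgeR without a replicate block, yet it differed between knockdowns. With the replicate number as a block, Ngfr was called higher in siJun (adjusted p = 2.47e-05). It was then called lower in siAtf3, siAtf4 and siKlf6 (adjusted p = 3.98e-05, 0.00771 and 0.000162). The other values in this paragraph are without the block. It measured 419, 438, 291 and 322 CPM in siJun, against 282, 318, 239 and 263 CPM in siCONTROL. The lowest siJun library lay within the siCONTROL range and the others above it. The log2 fold change was 0.41 ± 0.13 (adjusted p = 0.0509), and the call appeared without siCONTROL replicate 2 (0.50, adjusted p = 0.0326), without siJun replicate 3 (0.51, 0.0204) or without siJun replicate 4 (0.47, 0.0416). siJun was higher than siStat3, siKlf6, siRest and siAlyref by 0.58 to 0.80 on the log2 scale (adjusted p between 0.000107 and 0.0036), and siAtf3 minus siJun was -0.79 ± 0.13 (adjusted p = 0.000111) and siAtf4 minus siJun -0.66 ± 0.13 (adjusted p = 0.000922). These 6 pairs were all the calls for Ngfr. In siKlf6 the gene measured 199, 219, 213 and 212 CPM, below every siCONTROL library, with a log2 fold change of -0.38 ± 0.14 (adjusted p = 0.183). In siAtf3 it measured 226, 261, 162 and 203 CPM, overlapping siCONTROL, with a log2 fold change of -0.37 ± 0.13 (adjusted p = 0.0707). That difference was called without siCONTROL replicate 3 (-0.44, adjusted p = 0.0431) and without siAtf3 replicate 2 (-0.49, adjusted p = 0.0213).

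Gfra1, the GDNF co-receptor, was lowest in siStat3. It measured 84.1, 89.1, 53.3 and 82.9 CPM in siStat3, against 160.5, 193, 87.6 and 141 CPM in siCONTROL. Apart from siCONTROL replicate 3, every siCONTROL library lay above all siStat3 libraries. The level was 1.88-fold lower (log2 -0.91 ± 0.28, adjusted p = 0.0704), which did not pass, and it passed without siCONTROL replicate 3 (-1.10, adjusted p = 0.0232). Between knockdowns Gfra1 gave 5 calls. siStat3 minus siKlf6 was -1.16 ± 0.28 (adjusted p = 0.00484), siStat3 minus siRest -0.91 ± 0.28 (adjusted p = 0.0311), siAtf3 minus siStat3 0.89 ± 0.27 (adjusted p = 0.0333), siAtf4 minus siStat3 1.23 ± 0.27 (adjusted p = 0.00264) and siAtf4 minus siJun 0.86 ± 0.27 (adjusted p = 0.0337). The share of the replicate number in the spread behind these errors was not estimated, and the pairs were not fitted with it as a block. Against siCONTROL, a fit with that block called Gfra1 lower in siStat3 (log2 -0.89, adjusted p = 1.13e-07) and siJun (-0.55, 4.4e-05). It called Gfra1 higher in siAtf4 (0.34, 0.00674). The library numbered 3 was the lowest for Gfra1 in 7 of 7 siRNA groups at 42 h that have one. It was also the lowest in 3 of 3 mRNA groups. Number 2 was the highest for Gfra1 in 7 of 8 siRNA groups and 2 of 3 mRNA groups. Ngfr showed the same, lowest in number 3 in 7 of 7 and 3 of 3 groups and highest in number 2 in 8 of 8 and 3 of 3, and Gfra2 was highest in number 3 in 7 of 7 siRNA groups. The labels do not say what a number stands for.

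**Figure D4:**
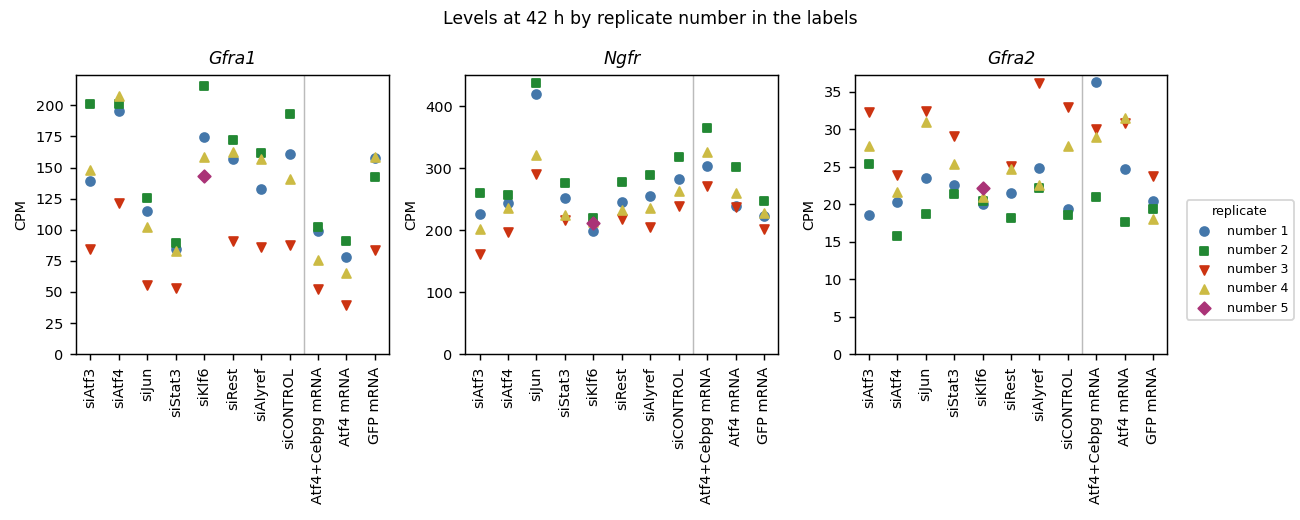
Level of Gfra1, Ngfr and Gfra2 in CPM (y axes, from 0) in each library at 42 h, with the replicate number of the labels as marker shape and colour; siKlf6 has a number 5 and no number 3. The red triangles of number 3 are the lowest Gfra1 and Ngfr value in every group that has one, and the highest Gfra2 value in every siRNA group that has one.

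The Trk receptors Ntrk2 and Ntrk3 and the co-receptor Gfra2, the low genes of the cultures, were not called in any knockdown. Over the 28 knockdown libraries Ntrk2 ran from 15.1 to 34.5 CPM with a median of 25.2 CPM, Ntrk3 from 12.1 to 34.5 CPM with a median of 24.7 CPM, and Gfra2 from 15.8 to 36.2 CPM with a median of 22.6 CPM. The log2 fold changes over siCONTROL lay between -0.29 and 0.04 for Ntrk2, between -0.33 and -0.08 for Ntrk3 and between -0.28 and 0.09 for Gfra2. Their 95% intervals reached -0.64 and 0.39 for Ntrk2, -0.76 and 0.36 for Ntrk3 and -0.69 and 0.49 for Gfra2, and the part of depth in their width was not tested. The F test across knockdowns did not pass for the 3 genes either (adjusted p = 0.468, 0.964 and 0.397), and 0 of their 63 pairwise tests did.

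The lists of other pathway genes are set beside these counts. In siAtf3, 8 of 24 receptor adaptors were lower and 0 higher, among them Arhgdia, a GDP dissociation inhibitor that p75 binds (541 ± 34.9 CPM in siAtf3 and 896 ± 43.9 CPM in siCONTROL, SD, n = 4 each), and Dok5 (1.64-fold lower). Of 12 other receptors, 3 were lower, including the Nogo receptor Rtn4r (2.01-fold) and sortilin, Sort1 (1.53-fold), both known partners of p75. In siJun, 7 of 11 neurotrophin-responsive genes were higher and 1 lower: the neuropeptide precursor Tac1 averaged 510 ± 93.6 CPM in siJun and 117 ± 17.0 CPM in siCONTROL, and Nptx1, a secreted pentraxin, was 5.11-fold higher. The adaptor Shc1 was higher in siJun (1.58-fold) and lower in siAtf4 (1.56-fold). In siAtf4, 4 of 24 adaptors were higher and 1 lower, with Sos1, the Ras exchange factor, 1.54-fold higher, and the ATP receptor P2rx3, known to be maintained by GDNF, 1.99-fold lower. In siStat3, 0 of 24 adaptors, 0 of 12 receptors and 0 of 14 kinases were called. In siRest, Map2k1 was the 1 call among the 5 pathway lists (1.54-fold lower).

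Marker sums for neuron classes and for other cells differed in some of these knockdowns. Peptidergic neuron markers summed to 3350 to 3630 CPM in siAtf3 and 3893 to 4653 CPM in siCONTROL, which did not overlap, with 1 of 7 called higher and 2 lower. Markers of Ret-expressing non-peptidergic neurons summed to 339 to 415 CPM in siAtf4 and 546 to 669 CPM in siCONTROL, which did not overlap. Of 8 tested, 1 was called higher (Lpar3, log2 1.11) and 1 lower (P2rx3, log2 -0.99), and the median log2 fold change was 0.10. Ret itself was called higher there. Pan-neuronal markers in siAtf4 summed to 16517 to 18956 CPM, which overlapped siCONTROL, with 4 of 15 called higher and 0 lower. Satellite glia markers summed to 668 to 810 CPM in siAtf3 and 651 to 887 CPM in siJun, against 893 to 1045 CPM in siCONTROL, with 1 of 10 genes called lower in each. Schwann cell markers summed to 1167 to 1331 CPM in siAtf3 and 1249 to 1445 CPM in siJun, against 1516 to 1715 CPM in siCONTROL, with 2 of 10 and 1 of 10 called lower. None of these 4 glial sums overlapped siCONTROL. The satellite glia call was Glul in each (log2 -1.12 in siAtf3 and -1.18 in siJun). The Schwann cell calls were Pmp22 in each (-0.53 in siAtf3 and -0.59 in siJun) and Erbb3 in siAtf3 (-0.45). The median log2 fold change of satellite glia markers was -0.04 in siAtf3 and 0.10 in siJun. For Schwann cell markers it was -0.13 in siAtf3 and 0.10 in siJun. Pan-neuronal markers summed to 12035 to 15460 CPM in siAtf3, against 15142 to 19320 CPM in siCONTROL, which overlapped, with 8 of 15 called lower. Ret and Bdnf were called lower in both siAtf3 and siJun and Gfra3 in siAtf3, and the part of cell composition in their values was not tested. In siAlyref, satellite glia markers summed to 798 to 941 CPM, which overlapped siCONTROL, with 1 of 10 called lower. Macrophage markers summed to 53.0 to 74.1 CPM in siStat3 and 31.8 to 50.6 CPM in siCONTROL, with 0 of 5 called. Their median log2 fold change in siStat3 was -0.17, opposite in sign to the difference in the sums.

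The mRNA groups asked the converse question, whether raising Atf4, alone or with its partner Cebpg, moved the same genes. Bdnf and Ret were lower with either mRNA treatment, Gfra1 was called lower with Atf4 mRNA, and Ngfr and Ntrk3 were called higher with both mRNAs. That is 3 lower and 0 higher of 8 genes with Atf4 mRNA, where 2.09% of 13857 genes were called lower and 2.76% higher (4.84% in all). With Atf4 and Cebpg mRNA it is 2 lower and 2 higher, where 12.2% were called lower and 12.4% higher (24.6% in all). Both comparisons share the GFP mRNA libraries. Directly compared, Atf4 with Cebpg mRNA against Atf4 mRNA gave 0 of 8 calls, where 2.1% of all genes were called lower and 4.5% higher (6.6% in all), and 2 of the 8 genes (Ntrk3 and Ngfr) had an unadjusted p under 0.05. Without a replicate block, the count of calls was also 0 by limma-voom and by DESeq2. With the replicate number as a block, edgeR called Ngfr higher with both mRNAs than with Atf4 mRNA (log2 0.28, adjusted p = 0.00714).

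Bdnf measured 30.04, 27.8, 34.2 and 29.2 CPM with Atf4 and Cebpg mRNA and 33.5, 26.8, 29.7 and 25.9 CPM with Atf4 mRNA, against 56.2, 47.8, 54.5 and 46.6 CPM with GFP mRNA. Every library of both treatments lay below every GFP mRNA library. The level was 1.68-fold lower with both mRNAs (log2 -0.75 ± 0.11, SE, n = 4 each, adjusted p = 0.000281) and 1.77-fold lower with Atf4 mRNA (log2 -0.82 ± 0.11, adjusted p = 0.000905). Bdnf was thus called lower after siAtf4 and after Atf4 mRNA, each against its own control.

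Ret measured 396, 336, 348 and 354 CPM with Atf4 and Cebpg mRNA and 377, 336, 342 and 370 CPM with Atf4 mRNA, against 453, 410, 403 and 499 CPM with GFP mRNA. No treated library reached a GFP mRNA library. The log2 fold change was -0.30 ± 0.08 with both mRNAs (adjusted p = 0.0149) and -0.31 ± 0.08 with Atf4 mRNA (adjusted p = 0.0416), opposite in sign to the 0.38 ± 0.10 of siAtf4. The call with both mRNAs was lost without their replicate 2 or 3 (adjusted p = 0.0583 and 0.0528). The Atf4 mRNA call for Ret was lost without any 1 of GFP mRNA replicates 1, 2 and 4 (adjusted p = 0.0959, 0.0563 and 0.109) or Atf4 mRNA replicates 1, 2, 3 and 4 (0.0513, 0.106, 0.106 and 0.0758).

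Gfra1 measured 98.6, 102, 52.1 and 75.8 CPM with Atf4 and Cebpg mRNA and 78.0, 90.7, 39.1 and 65.1 CPM with Atf4 mRNA, against 158, 142, 83.6 and 158 CPM with GFP mRNA. GFP mRNA replicate 3 lay within the range of both treatments, and the other GFP mRNA libraries lay above all treated ones. With Atf4 mRNA the level was 1.98-fold lower (log2 -0.99 ± 0.26, adjusted p = 0.0478), a call lost without any 1 of GFP mRNA replicates 1, 2 and 4 (adjusted p = 0.116, 0.109 and 0.114) or Atf4 mRNA replicates 1, 3 and 4 (0.0715, 0.107 and 0.122), and in limma-voom (0.0512). With both mRNAs it was 1.65-fold lower (log2 -0.73 ± 0.26, adjusted p = 0.0596), which did not pass, and passed without GFP mRNA replicate 3 (-0.90, adjusted p = 0.0201).

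Ntrk3, which encodes TrkC, measured 40.1, 34.8, 29.9 and 40.4 CPM with Atf4 and Cebpg mRNA, against 25.6, 17.96, 19.6 and 23.2 CPM with GFP mRNA, with no overlap and a 1.69-fold higher level (log2 0.75 ± 0.14, adjusted p = 0.00199). With Atf4 mRNA alone it measured 26.7, 31.8, 23.1 and 27.4 CPM, which overlapped GFP mRNA, and was not called (log2 0.34 ± 0.15, adjusted p = 0.207). Ngfr measured 303, 365, 271 and 326 CPM with Atf4 and Cebpg mRNA and 239, 301, 238 and 261 CPM with Atf4 mRNA, against 223, 247, 202 and 227 CPM with GFP mRNA. With both mRNAs all libraries lay above GFP mRNA and the level was 1.41-fold higher (log2 0.50 ± 0.10, adjusted p = 0.00315). The difference between the 2 mRNA treatments did not pass the test without a replicate block: it was 0.41 ± 0.14 for Ntrk3 (adjusted p = 0.114) and 0.29 ± 0.10 for Ngfr (adjusted p = 0.118).

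Ntrk2 measured 10.6, 18.6, 16.0 and 16.1 CPM with Atf4 and Cebpg mRNA, against 20.8, 19.3, 23.1 and 23.2 CPM with GFP mRNA. The groups did not overlap, but the log2 fold change of -0.46 ± 0.16 did not pass (adjusted p = 0.0541) and passed without Atf4 and Cebpg mRNA replicate 2 (-0.55, adjusted p = 0.0425). Gfra2 averaged 29.1 ± 6.26 CPM with both mRNAs and 20.4 ± 2.45 CPM with GFP mRNA (SD, n = 4 each). These overlapped, and the log2 fold change of 0.49 ± 0.19 did not pass (adjusted p = 0.0797), though it did without Atf4 and Cebpg mRNA replicate 2 (0.64, adjusted p = 0.0296). Gfra3 was not called in either treatment, at 63.7 ± 7.58 CPM with both mRNAs, 74.2 ± 7.35 CPM with Atf4 mRNA and 69.5 ± 8.83 CPM with GFP mRNA.

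Among other pathway genes, 3 of 12 receptors were higher and 2 lower with Atf4 and Cebpg mRNA. Sort1 was 1.41-fold higher and Rtn4r was 2.68-fold lower. Artn, the ligand of Gfra3, was 3.11-fold lower at 1.19 ± 0.507 CPM with both mRNAs and 3.79 ± 0.809 CPM with GFP mRNA. The adaptor Dok5 was 2.12-fold lower with both mRNAs, among 5 adaptors that were higher and 6 that were lower of 24. Of 11 neurotrophin-responsive genes, 6 were higher and 2 lower with both mRNAs, and 5 were higher and 1 lower with Atf4 mRNA. Scn11a was 2.33-fold higher with both mRNAs and 1.87-fold higher with Atf4 mRNA, and Vgf was 1.503-fold lower with both. Satellite glia markers summed to 638 to 698 CPM with both mRNAs and 632 to 676 CPM with Atf4 mRNA, against 690 to 775 CPM with GFP mRNA, and the Atf4 mRNA sums did not overlap it. With Atf4 mRNA 1 of 10 was called lower (Glul, log2 -0.71) and 0 higher, and the median log2 fold change was 0.14. With both mRNAs 1 was called higher and 1 lower, and the median was 0.18. Endothelial and mural markers summed to 277 to 322 CPM with both mRNAs and 188 to 265 CPM with GFP mRNA, which did not overlap, with 3 of 9 higher. Of 13 TrkB and TrkC neuron markers, 4 were higher and 0 lower with both mRNAs, at 727 to 1489 CPM with both and 672 to 1074 CPM with GFP mRNA, which overlapped. Of 9 markers of Ret-expressing neurons, 4 were higher with both mRNAs (671 to 864 CPM) and 3 with Atf4 mRNA (692 to 851 CPM), against 638 to 786 CPM with GFP mRNA, with 0 lower and overlapping sums. Peptidergic neuron markers summed to 3952 to 4302 CPM with Atf4 mRNA and 3552 to 3882 CPM with GFP mRNA, which did not overlap, with 1 of 7 higher and 0 lower. The part of these cells in the values of the 8 genes was not tested.

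Genes that moved most like each of the 8 were found by Pearson's r of log2 CPM over the 32 siRNA libraries at 42 h, among 9613 genes of at least 10 CPM on average. The points include the siCONTROL libraries and replicates of 1 group, so r is a description. For Ret they were Asap1 (r = 0.91), Prkcb (0.89) and Adcy2 (0.87). Within groups, after the group means were removed, r was 0.39, 0.80 and 0.66 for these 3 genes. For Gfra1 they were Chst2 (0.88), Uap1 (0.85) and Slc22a23 (0.83), and r within groups was 0.87, 0.89 and 0.80, so this likeness was of similar size between replicates of 1 group. For Bdnf they were Vamp2 (0.84), Sept5 (0.84) and Ndufa8 (0.82), and within groups Sept5 and Ndufa8 had r of 0.30 and 0.29. Ngfr was most like Kcnc4 (0.86), a potassium channel gene, Gfra3 most like Tmsb4x (0.85), an actin-binding peptide gene, and Gfra2 most like Fbln5 (0.78), an elastic fibre gene. For Ntrk3 and Ntrk2, the low genes, the highest values were 0.67 (Spred1, an inhibitor of Ras signalling) and 0.62 (Nbeal1).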

How the data were processed

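RNA from 48 libraries was measured by poly(A) RNA sequencing with a stranded kit, per the labels. The authors deposited expected counts, which are estimates and often not whole numbers, in 1 table for siRNA and time 0 libraries and 1 for mRNA libraries. The submitters' processing notes name kallisto and the build GRCm39. Its version, the annotation and any scaling of the values are not stated there. In 3003 single-transcript genes of at least 2000 bp, small values times length clustered near 1 constant per library (170 to 296 of 239 to 391 genes within 4%), so values were taken as already per transcript length. The count model does not know this weight, so its assumed counting error is inexact. Symbols came from GENCODE annotation of GRCm38 (95% of 34183 identifiers). All 48 columns were matched by name and 0 were left unused.

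Expected counts were rounded, filtered with filterByExpr, scaled by TMM and tested with edgeR 4.0.16 (quasi-likelihood F test, R 4.3.3, Benjamini-Hochberg adjustment over all genes, threshold 0.05). The 3 fits held the 7 knockdowns with siCONTROL (14876 genes), the 3 mRNA groups (13857 genes) and siCONTROL with time 0 (13448 genes). The script was tested on simulated data. Levels are CPM with 1 TMM scaling per table, and log2 CPM used a prior count of 2. Alternatives were DESeq2 1.42.0, limma 3.58.1 voom, other scaling, no filter, 2 groups alone, a replicate block and each library left out. The 8 genes, 5 pathway lists, 9 marker lists and tests were chosen with earlier results of these data known. Named were the 8 genes, per list and comparison up to 4 called genes with the smallest adjusted p, the 3 most similar genes, and the targeted genes; a few others (Tubb3, Prph and Rbfox3) were named after their values were seen. Some genes of the lists are counted but not reported by name here or drawn.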

Additional observations from a re-analysis of the deposited data

Results flagged for a closer look

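Gfra1 in siAtf4 replicate 3 was at 122 CPM, while the other 3 siAtf4 libraries were at 196 to 208 CPM. The gap to the nearest library was 0.861 of the range of the group, above Dixon's 95% critical value for 4 libraries. Chance flags about 5% of groups, and 96 groups (8 genes in 12 groups) were examined. Number 3 was also the lowest library for Gfra1 in the other siRNA groups that have one.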

How the results depend on the processing

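None of the 21 calls on the 8 genes changed direction under any setting run. Some log2 changes that were not called did, for example, with the replicate block, Ntrk2 (0.015) and Ret (0.022) in siKlf6, Gfra2 in siStat3 (0.017) and Gfra1 in siRest (0.0095). All 21 calls held under DESeq2's Wald test and with the replicate block, 20 with DESeq2 size factors, 19 in limma-voom, 18 with no filter and 11 of 16 with the 2 groups alone. Gfra3 in siStat3, Bdnf in siJun and Ret with Atf4 mRNA were lost in the last 2 settings, and Bdnf in siAtf4 and Gfra1 with Atf4 mRNA in the last. DESeq2 added Ngfr in siAtf3 (adjusted p = 0.046) and siJun (0.0292), Gfra1 in siStat3 (0.0499) and Ret in culture (0.0495). Of the 6 settings that keep all libraries, 2 called Ret in culture, and 2 called Gfra1 with both mRNAs. The 5 culture calls held with time 0 and all siRNA groups in 1 fit. Leaving out 1 library each time kept 133 of 168 calls, and the losses are given beside each gene. Counts of genes past the threshold moved by over 1.5 times as follows. siRest (30) went to 18 with no filter, 46 in DESeq2, 5 with the 2 groups alone and 15 to 24 with a library left out. With the 2 groups alone, siStat3 (450) went to 204, siKlf6 (275) to 18 and siAlyref (633) to 352. With a library left out, siKlf6 ran from 160 to 284, Atf4 mRNA against GFP mRNA (671) from 339 to 572, and Atf4 with Cebpg mRNA against Atf4 mRNA (915) from 553 to 961. Fewer libraries or fits with less shared spread are part of these settings; beyond that, the cause was not tested.

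With the replicate number as a block, the counts were 46 for siRest, 751 for siStat3 and 1028 for Atf4 mRNA. Same-numbered libraries were not taken as paired, since in no comparison did every pair of deviations correlate above 0.1. Yet 29 of 31 knockdown, 12 of 12 mRNA and 7 of 8 culture libraries correlated best with their own number, a hint from the data and not the design. The block added 12 calls and lost none, namely Gfra1 in siStat3 (log2 -0.89, adjusted p = 1.13e-07), siJun, siAtf4 and with both mRNAs, Ngfr in siJun (0.41, 2.47e-05), siAtf3, siAtf4, siKlf6 (-0.45, 0.000162) and with Atf4 mRNA, Gfra2 with both mRNAs, Gfra3 in culture (0.29, 0.0337), and Ngfr with both mRNAs against Atf4 mRNA (0.28, 0.00714), where the fit without it called 0 of the 8 genes, as it did in siKlf6. What depth limits was not tested apart from the spread between libraries.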
